A study of Rattus norvegicus with 24 samples.

Results

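The ZFP36 and BTG/TOB genes code for proteins that bring the deadenylase machinery to messenger RNA. The set was chosen by symbol and held 7 of the 26404 gene identifiers in the deposited tables, namely Zfp36, Zfp36l1, Zfp36l2, Btg1, Btg2, Tob1 and Tob2. They were measured by RNA sequencing in INS-1, an insulin-secreting line derived from a rat insulinoma and widely used to model beta cells, here a single tumour-derived line. Low glucose (3 mM) for 90 min was followed by 11 mM glucose and, in the same step, by BMS-21 at 1 µM (known here by its code name alone), by GLP-1 at 100 nM (glucagon-like peptide 1, an incretin whose receptor couples to cAMP production in beta cells) or by the vehicle DMSO (Control). RNA was taken after 6 h or 1 h, which gave 6 groups of 4 libraries and 24 libraries in all. All groups share the glucose change, and both agents at a time point were set against the same Control libraries. The labels do not say whether the 4 replicates were separate passages of the line, so the p-values measure the spread between these samples, which may be technical.

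ZFP36 proteins are zinc finger proteins that bind AU-rich elements in the 3' untranslated region of an mRNA and recruit the CCR4-NOT complex, which shortens the poly(A) tail and starts decay. BTG and TOB proteins share a conserved domain that binds the CAF1 deadenylases of the same complex, and they are known for restraining proliferation. TOB proteins also bind the cytoplasmic poly(A)-binding protein. Several of these genes are themselves early response genes with short-lived mRNAs in many cell types.

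Promoters of Btg2 and Zfp36 are shown because Btg2 had the largest rise and Zfp36 the largest fall of the set after 1 h of either agent. Both are RefSeq windows on build GRCr8, read 5′ to 3′ on the gene's strand, and run from 250 bases before to 50 bases after the annotated transcript start. Btg2 lies at chr13:48087641-48087940 (minus strand) and Zfp36 at chr1:92799059-92799358 (minus strand). Capitals mark matches to the motifs searched on both strands.
Btg2: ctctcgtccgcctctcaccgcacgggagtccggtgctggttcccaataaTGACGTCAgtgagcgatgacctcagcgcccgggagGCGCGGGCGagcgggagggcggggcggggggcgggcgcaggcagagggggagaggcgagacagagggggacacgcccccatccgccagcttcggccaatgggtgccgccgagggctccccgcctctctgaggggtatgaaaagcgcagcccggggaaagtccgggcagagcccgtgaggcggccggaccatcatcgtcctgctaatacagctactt
Zfp36: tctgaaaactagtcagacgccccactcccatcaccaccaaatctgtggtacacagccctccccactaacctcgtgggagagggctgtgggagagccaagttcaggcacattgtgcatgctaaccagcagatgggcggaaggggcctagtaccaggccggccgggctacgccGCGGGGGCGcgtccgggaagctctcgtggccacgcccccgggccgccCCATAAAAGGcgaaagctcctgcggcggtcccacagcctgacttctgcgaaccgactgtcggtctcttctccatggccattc
In the Btg2 window the capitals are a full cAMP response element (CRE), TGACGTCA, whose first base lies at position -201 from the start, and an EGR site at -166. In the Zfp36 window they are an EGR site at -79 and a CArG box, the site of serum response factor, at -32. The motifs searched were the full CRE, its short form TGACG (which the full CRE contains on both strands), the AP-1 site TGANTCA, the EGR site GCGNGGGCG and the CArG box. Of 33469 promoter windows of the same length in the RefSeq table, 1.83% held the full CRE, 21.2% the short form, 7.33% the AP-1 site, 4.98% the EGR site and 1.64% the CArG box. All 7 genes had a window. The short CRE form was found in Zfp36l2 at -147 and in Tob2 at -65, an AP-1 match in Zfp36l1 at -152 and an EGR match in Btg1 at -108, while the Tob1 window held none of the 5 motifs. A match describes letters in this window and was not tested as a binding site. In the Btg1 window the annotated start falls on the letters ATG, so its distances may not be from the transcription start. Whether the annotated starts are those used in these cells was not tested. A window without a motif, such as that of Tob1, does not show that the promoter of the gene lacks it.

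**Figure D1:**
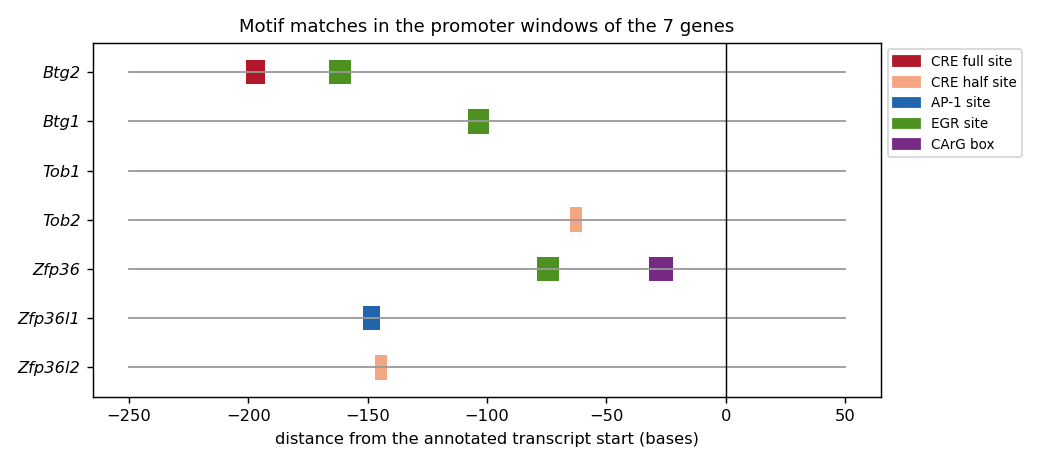
Motif matches in the promoter windows of the 7 genes, with the distance from the annotated transcript start in bases on the x axis and 1 line per gene. Coloured boxes are matches on either strand, and where a full CRE is drawn it covers the short forms it contains. Of these windows the full CRE is in that of Btg2 alone and the CArG box in that of Zfp36 alone. This does not show that the promoters of the other genes lack these sites.

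The libraries held 10667350 to 13148970 reads assigned to genes. Of 10 beta-cell markers, 9 were matched and all were expressed, with Ins1 between 8618 and 11711 CPM (reads scaled to library size), whereas Cela1 and Pnlip, of the exocrine markers, had 0 reads in every library. The other islet endocrine markers summed to 7.55 to 15.7 CPM, mostly Gcg, the 4 exocrine markers to at most 0.325 CPM, the duct markers to 0.268 to 1.28 CPM, mostly Cftr, and the 6 stromal, endothelial and immune markers to 0.737 to 2.07 CPM, mostly Col1a2 and Cd68. The first principal component of the values within groups held 25.8% of the variance. On it replicates 1 and 2 of every group stood apart from replicates 3 and 4. Values or calls within each of these pairs are therefore given beside some of the results. These are bulk samples, so fewer expressing cells and less RNA per cell cannot be told apart.

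Of the 7 genes, 6 passed the filter of a mean normalised count of at least 10 and were tested. Zfp36l1 (ENSRNOG00000030024), a ZFP36 paralogue, had 0 reads in 22 of the 24 libraries and 1 read in replicate 4 of GLP-1 at 6 h and in replicate 3 of Control at 6 h. At this depth a floor of 3 reads corresponds to 0.228 to 0.281 RPM, which covers counting error only, and no fold was computed for it. Whether this identifier covers the whole gene in the files' annotation was not tested, so the reads do not show that the gene is not expressed. After 6 h of BMS-21 or of GLP-1, 3 of the 6 tested genes rose (Btg1, Btg2 and Tob1) and 1 fell (Zfp36), in limma fits over all genes with Benjamini-Hochberg adjusted p under 0.05. Over all genes tested at 6 h, 33.6% were called for BMS-21, with 16.8% higher and 16.8% lower, and 31.7% for GLP-1, with 16.2% higher and 15.6% lower. After 1 h the same 3 genes rose with either agent, Zfp36 fell with either agent, and Zfp36l2 passed as lower with GLP-1. Far fewer genes were called at 1 h, 5.91% for BMS-21 (3.54% higher, 2.37% lower) and 6.58% for GLP-1 (4.17% higher, 2.41% lower). Tob2 passed in none of these comparisons.

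**Figure D2:**
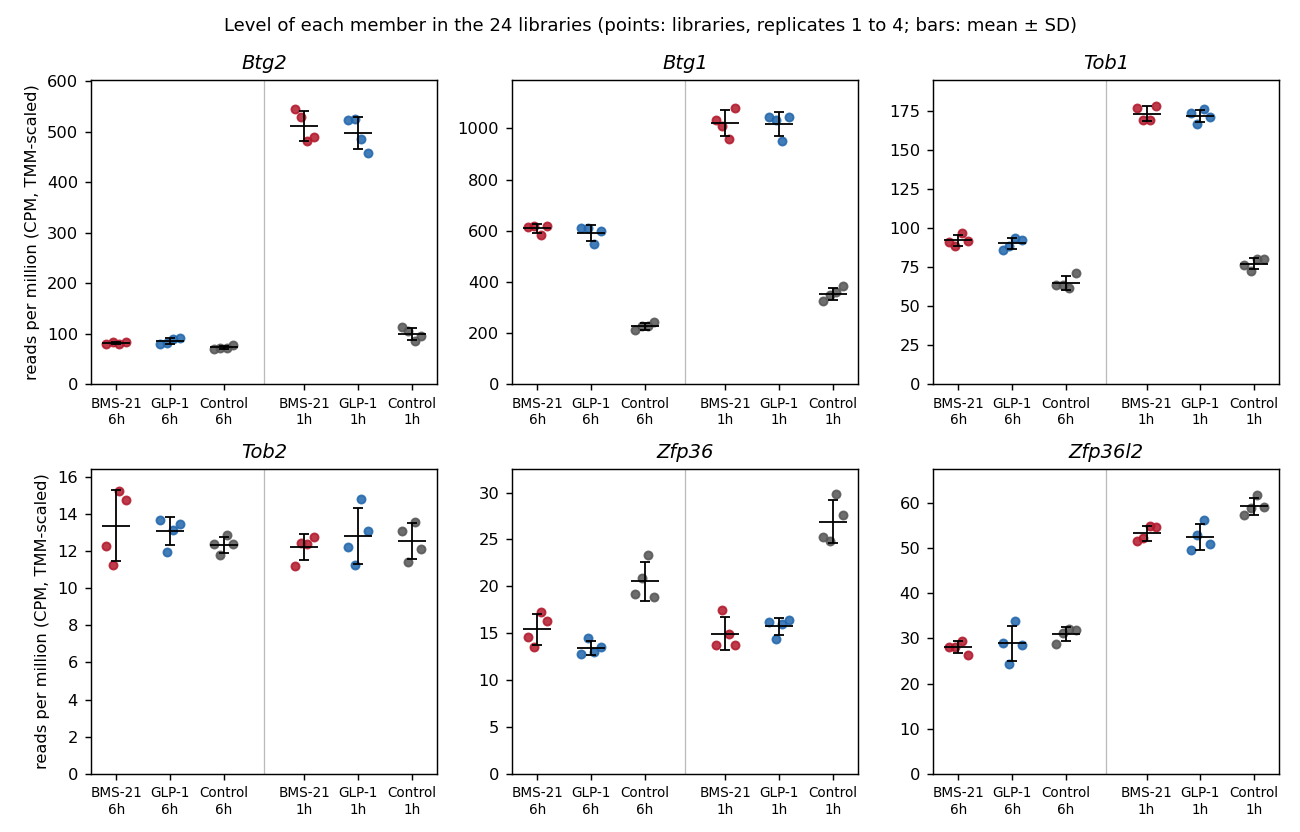
Level of the 6 tested genes in the 24 libraries, in CPM (TMM scaling, linear axis from 0), with groups on the x axis, 1 point per library in the order of replicates 1 to 4, and bars for the mean ± SD (n = 4). Btg1, Btg2 and Tob1 lie above Control with both agents at both times and Zfp36 lies below, whereas the Tob2 groups overlap.

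Btg2 (ENSRNOG00000003300), an antiproliferative early response gene that is also a p53 target, changed most at 1 h and least of the 3 rising genes at 6 h. At 6 h it had 79.7, 83.5, 79.5 and 84.2 CPM in the BMS-21 libraries, 80.5, 82.4, 89.3 and 91.5 CPM in the GLP-1 libraries and 69.4, 72.7, 72.8 and 77.7 CPM in the Control libraries (replicates 1 to 4). At 1 h it had 545, 529, 483 and 490.2 CPM with BMS-21, 523, 525, 485 and 458 CPM with GLP-1 and 113, 106, 86.2 and 96.6 CPM in Control. Every treated library was above every Control library of its time, by a wide gap at 1 h and a narrow one at 6 h. At 6 h the rise was 1.12-fold with BMS-21 (log2 0.16, SE 0.05, adjusted p = 0.0084) and 1.18-fold with GLP-1 (log2 0.23, SE 0.05, adjusted p = 0.00071). The small BMS-21 rise at 6 h did not pass in replicates 3 and 4 alone (log2 0.12, adjusted p = 0.098, against log2 0.20 and adjusted p = 0.003 in replicates 1 and 2), in 1 fit of all 24 libraries (adjusted p = 0.057) or with scaling by library totals (log2 0.10, adjusted p = 0.093). The 1 h means were 512 ± 30.2 CPM with BMS-21, 498 ± 32.2 CPM with GLP-1 and 101 ± 11.8 CPM in Control (SD, n = 4 each). Relative to Control at 1 h the level was 5.11-fold higher with BMS-21 (log2 2.35, SE 0.08, limma adjusted p = 2.37e-08) and 4.98-fold higher with GLP-1 (log2 2.32, SE 0.08, adjusted p = 1.21e-07). These rises ranked 19 of 12697 and 19 of 12715 genes by log2 fold change.

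Btg1 (ENSRNOG00000004284), the close paralogue of Btg2 and a frequent site of mutation in B-cell lymphoma, rose with both agents at both times. At 6 h it had 615, 620.4, 583 and 619 CPM with BMS-21, 611, 609.7, 547 and 599.8 CPM with GLP-1 and 211, 229, 228 and 244 CPM in Control. After 1 h there were 1032, 1010.3, 959 and 1079 CPM with BMS-21, 1046, 1032, 950.0 and 1044 CPM with GLP-1 and 326, 348, 360.5 and 383 CPM in Control. The lowest treated library stood above the highest Control library by 303 CPM at 6 h and by 567 CPM at 1 h. The 6 h rise was 2.68-fold with BMS-21 (log2 1.42, SE 0.04, limma adjusted p = 5.03e-17) and 2.60-fold with GLP-1 (log2 1.38, SE 0.04, adjusted p = 5.95e-15). At 1 h it was 2.88-fold with either agent (log2 1.53 for each, SE 0.05 with BMS-21 and 0.04 with GLP-1, adjusted p = 5.55e-15 and 6.83e-16). In all 4 comparisons the rise was smaller in replicates 3 and 4 than in replicates 1 and 2, for example log2 1.28 against 1.48 with GLP-1 at 6 h, and it passed within each pair.

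Tob1 (ENSRNOG00000002828), which binds both the deadenylase and the poly(A)-binding protein, rose with both agents at both times. At 6 h it had 91.2, 88.6, 96.7 and 91.8 CPM with BMS-21, 86.1, 88.5, 93.4 and 92.6 CPM with GLP-1 and 63.8, 63.3, 61.4 and 71.0 CPM in Control. The 1 h libraries had 177, 169, 169 and 178 CPM with BMS-21, 173, 167, 176 and 171 CPM with GLP-1 and 76.3, 72.4, 80.4 and 80.1 CPM in Control. Treated and Control libraries did not overlap at either time. The rise at 6 h was 1.42-fold with BMS-21 (log2 0.51, SE 0.05, limma adjusted p = 3.59e-08) and 1.39-fold with GLP-1 (log2 0.48, SE 0.05, adjusted p = 1.0e-07). At 1 h it was 2.25-fold with BMS-21 (log2 1.17, SE 0.04, adjusted p = 1.11e-15) and 2.23-fold with GLP-1 (log2 1.16, SE 0.04, adjusted p = 3.33e-17). Within replicates 1 and 2 and within replicates 3 and 4 it passed in all 4 comparisons.

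Tob2 (ENSRNOG00000050500), the paralogue of Tob1, stayed between 11.2 and 15.2 CPM in all 24 libraries, and its groups overlapped in every comparison. Its group means ran between 12.2 ± 0.705 CPM with BMS-21 at 1 h and 13.4 ± 1.92 CPM with BMS-21 at 6 h (SD, n = 4 each). The log2 difference from Control was 0.10 with BMS-21 (95% interval -0.10 to 0.30) and 0.08 with GLP-1 (-0.09 to 0.25) at 6 h. At 1 h it was -0.03 with BMS-21 (-0.22 to 0.15) and 0.03 with GLP-1 (-0.16 to 0.23).

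Zfp36 (ENSRNOG00000019673), which codes for tristetraprolin, the founding member of the family and a repressor of cytokine mRNAs such as Tnf in mouse macrophages, moved opposite to Btg1, Btg2 and Tob1. At 6 h it had 14.6, 13.5, 17.2 and 16.3 CPM with BMS-21, 12.8, 14.5, 13.0 and 13.6 CPM with GLP-1 and 19.1, 20.9, 23.4 and 18.8 CPM in Control. The 1 h levels were 13.7, 17.4, 14.9 and 13.8 CPM with BMS-21, 16.2, 14.3, 16.0 and 16.4 CPM with GLP-1 and 25.2, 24.9, 29.8 and 27.6 CPM in Control. All treated libraries were below all Control libraries of their time. These values rest on 154 to 367 reads per library, against 875 to 6594 reads for Btg2. The fall at 6 h was 1.33-fold with BMS-21 (log2 -0.42, SE 0.09, limma adjusted p = 0.00079) and 1.52-fold with GLP-1 (log2 -0.60, SE 0.08, adjusted p = 6.96e-06). At 1 h the level was 1.79-fold lower with BMS-21 (log2 -0.84, SE 0.08, adjusted p = 1.39e-07) and 1.70-fold lower with GLP-1 (log2 -0.76, SE 0.08, adjusted p = 3.19e-08). Counted from the largest decrease, the 1 h falls ranked 37 of 12697 genes with BMS-21 and 45 of 12715 genes with GLP-1. The fall passed within replicates 1 and 2 and within replicates 3 and 4 in each comparison.

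Zfp36l2 (ENSRNOG00000005067), a paralogue with the same tandem zinc fingers that is known in mice for roles in haematopoiesis and oocytes, changed little with either agent. At 6 h it had 28.1, 28.2, 29.5 and 26.3 CPM with BMS-21, 28.9, 24.4, 33.9 and 28.5 CPM with GLP-1 and 28.8, 31.2, 32.1 and 31.9 CPM in Control. After 1 h the levels were 51.7, 52.2, 54.9 and 54.6 CPM with BMS-21, 49.5, 52.9, 56.2 and 51.0 CPM with GLP-1 and 57.4, 59.0, 61.9 and 59.2 CPM in Control. The treated libraries lay below Control without overlap at 1 h and overlapped Control at 6 h. At 1 h the level was 1.13-fold lower with GLP-1 (log2 -0.18, SE 0.05, limma adjusted p = 0.032). That call was lost in replicates 1 and 2 (log2 -0.18, adjusted p = 0.071) and in replicates 3 and 4 (log2 -0.17, adjusted p = 0.20). It was also lost with DESeq2 (adjusted p = 0.089), with no filter (0.054), in 1 fit of all 24 libraries (0.094), and without GLP-1 replicate 1, 2 or 4 or Control replicate 2, 3 or 4 (0.062 to 0.14), and the authors' deposited table gives an adjusted p of 0.083. With BMS-21 at 1 h the log2 difference was -0.15 (SE 0.05, adjusted p = 0.072), which passed with the replicate number as a block (adjusted p = 0.0081) and with scaling by library totals (0.023). At 6 h it was -0.14 with BMS-21 (SE 0.06, adjusted p = 0.077) and -0.10 with GLP-1 (SE 0.08, adjusted p = 0.34). The BMS-21 value at 6 h passed without Control replicate 1 (adjusted p = 0.046) and with scaling by library totals (0.013).

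**Figure D3:**
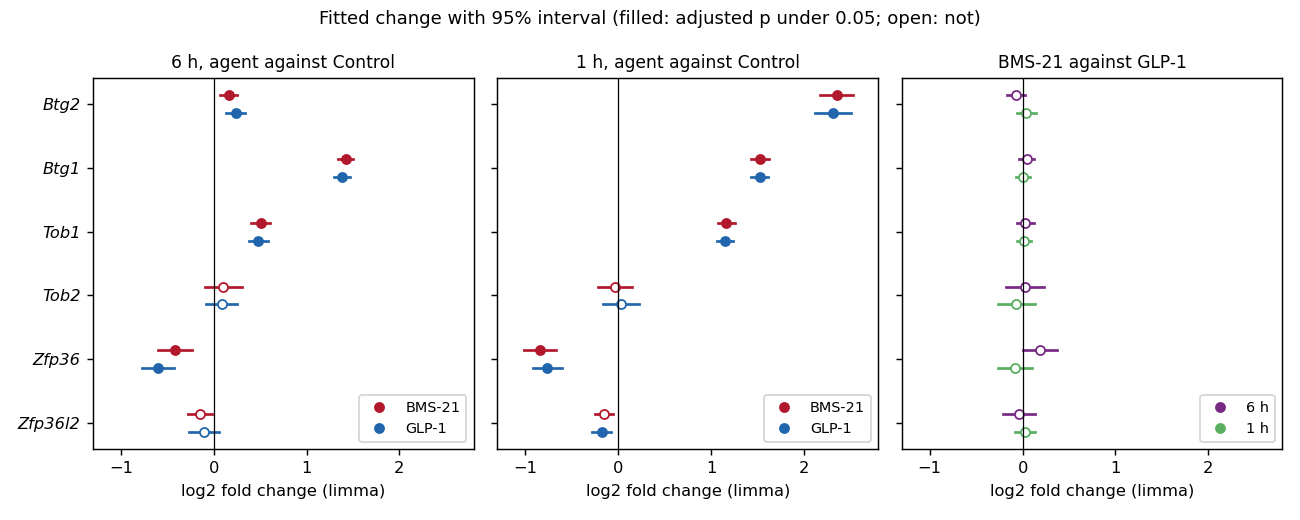
Fitted log2 fold change (x axis) of the 6 tested genes with 95% intervals from limma, for each agent against Control at 6 h (left) and 1 h (middle) and for BMS-21 against GLP-1 (right). Filled points passed an adjusted p of 0.05 over all genes. Btg2 sits at 0.16 with BMS-21 and 0.23 with GLP-1 at 6 h and at 2.35 and 2.32 at 1 h, and no point in the right panel is filled.

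In Control cells, which differ only in the time after the glucose change and vehicle, 5 of the 6 tested genes fell at 6 h relative to 1 h and none rose (edgeR on recovered reads). Over all genes 52.9% were called in this comparison, 26% higher and 26.9% lower. Zfp36l2 fell most, to 31.0 ± 1.51 CPM at 6 h, against 59.4 ± 1.87 CPM at 1 h (SD, n = 4 each), which is 1.92-fold lower (log2 -0.94, SE 0.06, edgeR adjusted p = 6.87e-16). Btg1 was 1.56-fold lower (log2 -0.64, SE 0.05, adjusted p = 1.51e-12) and Zfp36 1.31-fold lower (log2 -0.39, SE 0.08, adjusted p = 6.87e-05). Btg2 was 1.38-fold lower (log2 -0.47, SE 0.07, adjusted p = 2.68e-06), with log2 -0.63 in replicates 1 and 2 and -0.29 in replicates 3 and 4. Tob1 was 1.20-fold lower (log2 -0.26, SE 0.05, adjusted p = 6.72e-06). The 6 h and 1 h Control libraries did not overlap for any of these 5 genes, and how often this held over all genes was not counted. Tob2 had 12.3 ± 0.429 CPM at 6 h and 12.5 ± 0.962 CPM at 1 h (log2 -0.03, adjusted p = 0.82).

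The change of each response between the times was tested as the difference of the agent effect at 6 h and at 1 h in 1 edgeR fit of all 24 libraries. The BMS-21 response differed for 3 of the 6 genes, 1 higher and 2 lower, and the GLP-1 response for 2, both lower. Over all genes 21.7% were called for BMS-21 (10.8% higher, 10.9% lower) and 17.3% for GLP-1 (8.3% higher, 9.01% lower). The Btg2 response was smaller at 6 h by a log2 difference of -2.19 with BMS-21 (SE 0.09, adjusted p = 3.98e-15) and -2.08 with GLP-1 (SE 0.09, adjusted p = 1.37e-14). The Tob1 response was smaller at 6 h by -0.66 with BMS-21 (SE 0.06, adjusted p = 1.06e-10) and -0.68 with GLP-1 (SE 0.06, adjusted p = 6.00e-11). For Btg1 the difference of responses was -0.11 with BMS-21 (95% interval -0.24 to 0.03, adjusted p = 0.28) and -0.15 with GLP-1 (-0.29 to -0.01, adjusted p = 0.13). The GLP-1 value of Btg1 passed with the replicate block (adjusted p = 0.031), in replicates 1 and 2 (0.026) and without Control 1 h replicate 4 (log2 -0.19, adjusted p = 0.038). The rise of Btg2 at 6 h was thus a small part of that at 1 h, and the Tob1 rise was also smaller at 6 h, whereas for Btg1 the interval of the difference bounds any loss to a log2 value of -0.24 with BMS-21 and -0.29 with GLP-1.

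For Zfp36 the BMS-21 response was less negative at 6 h than at 1 h by 0.43 (SE 0.12, edgeR adjusted p = 0.0086). The value was 0.67 in replicates 3 and 4 (adjusted p = 0.0011) and 0.18 in replicates 1 and 2 (adjusted p = 0.48), where it did not pass. With GLP-1 the Zfp36 difference was 0.16 (95% interval -0.09 to 0.41, adjusted p = 0.44). Zfp36l2 and Tob2 did not pass for either agent, with differences between 0.01 and 0.15.

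**Figure D4:**
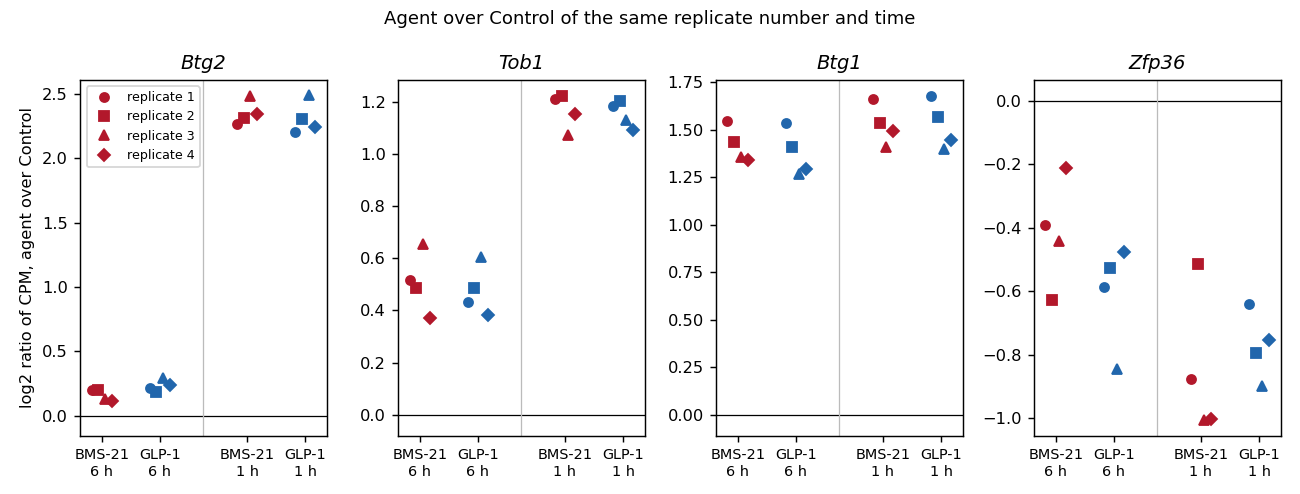
Log2 ratio of CPM, agent over the Control library of the same replicate number and time, for Btg2, Tob1, Btg1 and Zfp36, with 6 h groups left of 1 h groups and marker shape for the replicate. All 4 ratios lie on the same side of 0 in each group, and for Btg2 they run between 0.11 and 0.30 at 6 h and between 2.21 and 2.49 at 1 h.

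The order of the 6 group levels separated the genes. For Btg1 and Tob1 it was both agents at 1 h, both agents at 6 h, Control at 1 h and Control at 6 h, and only the 2 agents at the same time overlapped. For Btg2 both agents at 1 h stood far above the rest, Control at 1 h overlapped GLP-1 at 6 h, the 2 agents at 6 h overlapped, and Control at 6 h was lowest with no overlap. For Zfp36 Control at 1 h was highest, Control at 6 h came next, and the 4 treated groups followed, each overlapping its neighbour in the order. For Zfp36l2 the 3 groups at 1 h were all above the 3 groups at 6 h. Neighbouring Tob2 groups all overlapped.

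BMS-21 and GLP-1, given at different concentrations, were compared directly at each time. None of the 6 genes passed at 6 h or at 1 h. Over all genes limma called 2 of 12629 at 6 h (0.0158%, with 0.00792% higher and 0.00792% lower) and 0 of 12672 at 1 h (0%). The 2 genes, named after their values were seen, were Ccny, which was higher with BMS-21 (log2 0.24), and Hspa12a, which was lower (log2 -0.34). Leaving out any 1 of the 8 libraries left 0 genes called at 6 h. At an unadjusted p under 0.05 limma counted 800 genes at 6 h and 432 at 1 h. At an adjusted p under 0.05 DESeq2 called 16 at 6 h and 0 at 1 h, and edgeR on 8 libraries called 2 and 0. At that adjusted threshold the replicate block raised the limma counts from 2 to 217 at 6 h and from 0 to 85 at 1 h. None of the 6 genes was among them. The 95% intervals of the log2 difference bound how far the agents could differ. For Btg2 they were -0.17 to 0.03 at 6 h and -0.06 to 0.14 at 1 h. For Btg1 they were -0.04 to 0.12 at 6 h and -0.08 to 0.08 at 1 h, and for Tob1 -0.06 to 0.12 at 6 h and -0.06 to 0.09 at 1 h. Zfp36 had the largest log2 difference of the 6 genes at 6 h, 0.19 higher with BMS-21 (95% interval 0.01 to 0.37, limma adjusted p = 0.78). The value was 0.05 in replicates 1 and 2 and 0.33 in replicates 3 and 4, and passed in neither. For Zfp36, and also for Btg1, 3 of 4 BMS-21 libraries at 6 h were above every GLP-1 library. At 1 h the Zfp36 difference was -0.08 (-0.26 to 0.10).

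Btg3, the remaining BTG gene with enough reads, rose slightly with both agents. Its level was 212 ± 14.6 CPM with BMS-21, 205 ± 6.24 CPM with GLP-1 and 166 ± 5.56 CPM in Control at 6 h (SD, n = 4 each). The log2 rise at 6 h was 0.35 with BMS-21 (limma adjusted p = 1.96e-06) and 0.31 with GLP-1 (adjusted p = 8.07e-07), and at 1 h it was 0.22 with BMS-21 (adjusted p = 0.00048) and 0.21 with GLP-1 (adjusted p = 0.00019). Btg4, known from mouse oocytes, was too low to test.

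The general decay machinery that these proteins recruit was described by lists. Of 11 CCR4-NOT genes tested, 0 rose and 2 fell at 6 h with BMS-21 and with GLP-1, where 33.6% and 31.7% of all genes were called. At 1 h 0 of the 11 passed with either agent, where 5.91% of all genes were called with BMS-21 and 6.58% with GLP-1, and nothing particular to the complex is read from these counts. The 2 were Cnot6l and Cnot6, the CCR4-type catalytic deadenylases. Cnot6l had 152 ± 7.32 CPM with BMS-21, 164 ± 3.81 CPM with GLP-1 and 194 ± 8.02 CPM in Control at 6 h (SD, n = 4 each), a log2 change of -0.36 with BMS-21 (limma adjusted p = 5.74e-07) and -0.24 with GLP-1 (adjusted p = 2.92e-05). Cnot6 changed by -0.18 with BMS-21 (adjusted p = 0.0043) and -0.12 with GLP-1 (adjusted p = 0.035). In Control at 6 h relative to 1 h, 3 of the 11 rose and 4 fell, where 52.9% of all genes were called, led by Cnot6 (log2 0.63, edgeR adjusted p = 1.22e-14), Cnot6l (-0.23) and Cnot4 (0.32), a ubiquitin ligase that binds the complex. The median log2 change of the 11 genes at 6 h was -0.00044 with BMS-21 and -0.026 with GLP-1, against -0.0015 and -0.00065 over all genes.

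Of the 6 other deadenylase and poly(A) genes, Pabpc4, a poly(A)-binding protein, was the only one called at 6 h, as higher by 0.11 with each agent (limma adjusted p = 0.027 with BMS-21 and 0.029 with GLP-1), and 0 passed at 1 h. Of 13 decapping and 5'-3' decay genes tested, 2 rose at 6 h with each agent and 0 passed at 1 h. Dcp1a, a decapping cofactor, rose by log2 0.28 with BMS-21 and 0.33 with GLP-1, joined by Patl1 with BMS-21 (0.21) and Lsm4 with GLP-1 (0.14). Of 14 exosome genes, 1 fell at 6 h with each agent, Exosc5 with BMS-21 (-0.27) and Exosc8 with GLP-1 (-0.21), and 0 passed at 1 h. Between BMS-21 and GLP-1 at 6 h, 0 genes of these 3 lists were called, where 0.0158% of all genes were. The different names therefore do not show a difference between the agents. The share of all genes called was 33.6% with BMS-21 and 31.7% with GLP-1 at 6 h, and 5.91% and 6.58% at 1 h. The median log2 change at 6 h in the 3 lists lay between -0.041 and 0.026.

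Among 19 tested genes for other proteins that bind 3' untranslated regions, 6 rose and 5 fell with BMS-21 and 4 rose and 3 fell with GLP-1 at 6 h, and 3 rose and 1 fell with each agent at 1 h. Over all genes 33.6% were called with BMS-21 and 31.7% with GLP-1 at 6 h, and 5.91% and 6.58% at 1 h. The median log2 change of the 19 genes was -0.0037 with BMS-21 and -0.030 with GLP-1 at 1 h. Zc3h12a, the endonuclease Regnase-1, had 12.4 ± 1.79 CPM with BMS-21, 11.1 ± 1.48 CPM with GLP-1 and 5.60 ± 0.912 CPM in Control at 1 h (SD, n = 4 each), a log2 rise of 1.14 with BMS-21 (limma adjusted p = 4.89e-07) and 0.99 with GLP-1 (adjusted p = 1.37e-06). Its response was smaller at 6 h by -0.69 with BMS-21 (edgeR adjusted p = 0.0056) and -0.65 with GLP-1 (adjusted p = 0.013). Mex3b, a KH-domain RNA-binding protein, fell at 6 h (log2 -0.75 with BMS-21, -0.53 with GLP-1) and at 1 h (log2 -0.82 with BMS-21, limma adjusted p = 6.66e-07, and -0.85 with GLP-1, adjusted p = 1.15e-08). The other 2 that rose at 1 h were Zc3h12c, a relative of Zc3h12a (0.71 with BMS-21, 0.68 with GLP-1), and Cpeb4, a cytoplasmic polyadenylation factor (0.44 with BMS-21, 0.50 with GLP-1). Zc3h12c with GLP-1 and Cpeb4 with BMS-21 fall outside the naming rule and are given after their values were seen.

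**Figure D5:**
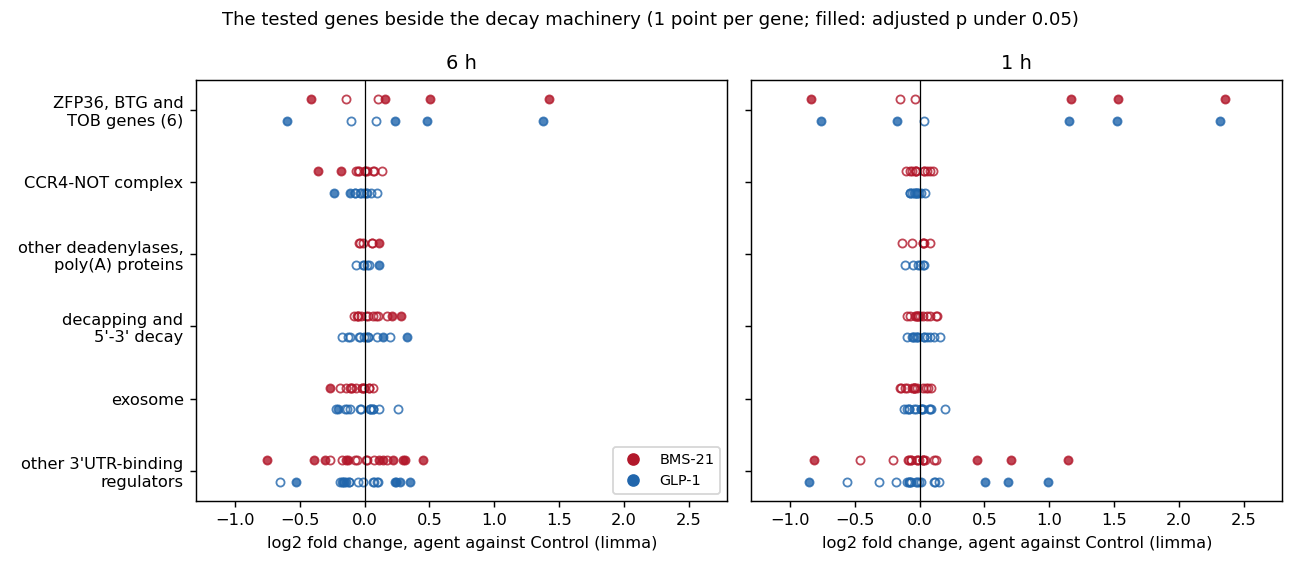
Log2 fold change against Control (x axis, limma) at 6 h (left) and 1 h (right), 1 point per tested gene, for the 6 tested ZFP36, BTG and TOB genes and for 5 lists of decay and RNA-binding genes, with BMS-21 above GLP-1 in each row. Filled points passed an adjusted p of 0.05. At 1 h no CCR4-NOT, poly(A), decapping or exosome gene is filled, and Btg2 reaches 2.35 with BMS-21. Over all genes 5.91% were called with BMS-21 and 6.58% with GLP-1 at 1 h.

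Of 22 mRNAs known from other systems as targets of ZFP36 proteins, 13 were tested at 1 h. With each agent 7 of them rose and 0 fell. Over all genes at 1 h, 3.54% rose and 2.37% fell with BMS-21, and 4.17% rose and 2.41% fell with GLP-1. The median log2 change of the 13 was 0.46 with BMS-21 and 0.43 with GLP-1, against 0.00055 and -0.0015 over all genes. The list was chosen with earlier results of these data known. The filter took the mean over treated and Control libraries together, so a gene could enter through either group. These counts and medians are therefore a description only. At 6 h 12 of the listed mRNAs were tested, and 6 rose and 4 fell with each agent. Over all genes at 6 h, 16.8% rose and 16.8% fell with BMS-21, and 16.2% rose and 15.6% fell with GLP-1. The median of the 12 at 6 h was 0.25 with BMS-21 and 0.16 with GLP-1. Many of these mRNAs are also early response genes, and the part of mRNA stability in their levels was not tested. Fos, an AP-1 subunit, had 72.8 ± 8.26 CPM with BMS-21, 66.8 ± 7.45 CPM with GLP-1 and 4.88 ± 0.374 CPM in Control at 1 h (SD, n = 4 each), a log2 rise of 3.87 with BMS-21 (limma adjusted p = 5.35e-20) and 3.75 with GLP-1 (adjusted p = 6.22e-22). Dusp1, a phosphatase of MAP kinases, rose by log2 0.53 with BMS-21 and 0.43 with GLP-1 at 6 h, and by 1.62 with BMS-21 and 1.55 with GLP-1 at 1 h. Ccnd1, cyclin D1, was higher by log2 2.61 with BMS-21 (adjusted p = 5.44e-14) and 2.55 with GLP-1 (adjusted p = 6.62e-14) at 6 h. Those that fell at 6 h with each agent, named after their values were seen, included E2f1, Notch1 and Pim1, whose log2 changes were between -0.50 and -0.30 with BMS-21 and between -0.55 and -0.36 with GLP-1.

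Likeness of pattern was measured as Pearson's r of log2 CPM over the 24 libraries, among 9462 genes with a mean of at least 50 reads. All points share the same 6 groups, libraries and scaling, so r is a description only. The genes most like Btg2 were Tiparp (r = 0.996), Nr4a3 (0.994) and Per1 (0.994), and those most like Tob1 were Fos (0.993), Csrnp1 (0.991) and Dyrk3 (0.990). For Btg1 they were Nedd9 (0.989), Fst (0.988) and Plk2 (0.986). For Zfp36 they were Gadd45a (0.909), Hes1 (0.893) and Bhlhe40 (0.880), and for Zfp36l2 Rfx3 (0.982), Ccdc28a (0.980) and Fam171b (0.980). The highest values for Tob2 were lower, with Ddx17 at 0.754. Between members r was 0.951 for Btg2 and Tob1, 0.932 for Btg1 and Tob1, 0.798 for Btg1 and Btg2 and -0.654 for Zfp36 and Btg1.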

How the data were processed

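Per the submitters' processing notes, reads were processed against Rnor_5.0, with TopHat2 2.0.12, Bowtie2 2.2.3.0, SAMtools 0.1.19.0, Subread, DESeq and DESeq2 1.6.3 named without roles. The annotation version is not given in the sources used here. The library kit does not mark strand, so reads of overlapping antisense transcripts count toward a gene. The authors deposited 6 tables, 1 per pair of groups at a time, whose values are normalised counts (a signal on a linear scale, counts divided by a size factor set within the table). Each deposited table adds a log2 fold change and an adjusted p-value by the authors. All values were whole multiples of 1 step (100%, tolerance 0.001), which gave back the reads of each gene, and these matched between both tables of each of the 24 libraries.

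Pairs of groups were tested with limma 3.58.1 (R 4.3.3, trend and robust) on log2 of the normalised count plus 1, within each table, where the mean reached 10. A fold change on this scale understates the change of low genes. Effects across time used edgeR 4.0.16 (quasi-likelihood, TMM, filterByExpr) on recovered reads. Adjustment was Benjamini-Hochberg over all genes tested, with 0.05 as the threshold, and CPM use TMM factors. The limma and edgeR fits of GLP-1 against Control at 6 h and at 1 h were tried on simulated counts. The simulation had a fixed spread and no replicate structure, and the fits across time were not simulated. Members and lists were chosen with earlier results of these data known. Named genes are the 7 members, up to 3 with the smallest adjusted p per list and comparison, and the 3 most alike per member. Promoters came from RefSeq (GRCr8).

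With group means subtracted, same-numbered libraries correlated by 0.125 to 0.406 in all 24 pairs. Values for differently numbered libraries were not computed, and the split of replicates on the first principal component could give positive values by itself. Whether each number pairs its own samples was therefore not tested. What the replicate numbers stand for is not stated, and the main fits have no block. Alternatives were pseudocounts, filters, scalings, DESeq2 1.42.0, edgeR, the replicate block, 1 fit of all libraries, replicate pairs and leaving out each library. The values of 1 listed gene are not reported here.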

Additional observations from a re-analysis of the deposited data

Results flagged for a closer look

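The response to BMS-21 differed between 6 h and 1 h for Btg2 (log2 difference of responses -2.19), Tob1 (-0.66) and Zfp36 (0.43), each by the edgeR test of that difference. The response to GLP-1 differed for Btg2 (-2.08) and Tob1 (-0.68) by the same test. For Btg2 and Tob1 all 4 same-numbered ratios at 6 h were below all 4 at 1 h with each agent. For Zfp36 with BMS-21 the ratios of both times overlapped, with -0.626 as the lowest at 6 h and -0.515 as the highest at 1 h. How often such ratios lay apart over all genes was not counted.

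Among the group values of Btg1, replicate 3 of BMS-21 at 6 h (583 CPM) and replicate 3 of GLP-1 at 1 h (950.0 CPM) lay farther below the other 3 libraries of their group than Dixon's 95% critical value for 4 values allows, with gaps of 0.863 and 0.856 of the group's range. Each of the 6 tested genes was screened in each of the 6 groups. Chance flags about 1 in 20 such sets of 4 values, so flags are expected among them. Replicate 3 also had the lowest Btg1 value with BMS-21 at 1 h (959 CPM) and with GLP-1 at 6 h (547 CPM). It was not the lowest in Control at either time. Whether these sets are related through the replicate number was not tested. Both flagged Btg1 libraries were still above every Control library of their time.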

How the results depend on the processing

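Over the tested genes, alternatives and comparisons, 1028 of the 1085 member values kept their direction and their side of the threshold, 15 no longer passed and 7 newly passed. A further 35 changed sign, at log2 values between -0.12 and 0.084, of which 15 were of Tob2 and 11 of Zfp36l2; 0 of the 35 passed in either fit. The 22 that changed side concern Zfp36l2, Btg2 with BMS-21 at 6 h, and the changes of response of Btg1 with GLP-1 and Zfp36 with BMS-21, with values beside those results. In fits with the replicate block, the count of all genes called was 1551 for BMS-21 at 1 h (751 without it), 1513 for GLP-1 at 1 h (837), 217 for BMS-21 against GLP-1 at 6 h (2) and 85 at 1 h (0). Of the members, the block changed the call of Zfp36l2 with BMS-21 at 1 h and of the change of the Btg1 response to GLP-1, and no other. BMS-21 at 1 h gave 497 in replicates 3 and 4. BMS-21 against GLP-1 at 6 h gave 1 with a mean of at least 50, 16 with DESeq2, 8 in 1 fit of all libraries, 37 in replicates 1 and 2, 39 in replicates 3 and 4, and 0 without any 1 library. The cause was not tested. Leaving out each library in turn gave 3671 to 4139 genes for BMS-21 and 3509 to 3749 for GLP-1 at 6 h, and 597 to 758 and 670 to 841 at 1 h. Scaling by library totals moved the split of higher and lower calls to 1510 and 3068 for BMS-21 at 6 h (2125 and 2128 otherwise), 1451 and 2960 for GLP-1 at 6 h (2044 and 1967), 380 and 445 for BMS-21 at 1 h (450 and 301), and 449 and 506 for GLP-1 at 1 h (530 and 307). Zfp36l1 had too few reads to be tested, and Tob2 and Zfp36 had the fewest reads of the tested members.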
